A study of Caenorhabditis elegans with 12 samples.

Results

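The 10 genes described here encode the core of the Notch pathway of Caenorhabditis elegans: both Notch receptors (lin-12 and glp-1), the enzymes that cut the receptors (sup-17, sel-12, hop-1, aph-1, aph-2 and pen-2) and the nuclear effectors (lag-1 and sel-8). The set is defined by gene name, though it was drawn up with earlier results of these data known, and all 10 were among the 46687 genes of the count table. RNA was sequenced from GFP+ cells that were sorted after dissociation of whole adult hermaphrodites carrying a single-copy Pfos-1a::gfp insertion, which marks the proximal somatic gonad (PSG), the spermathecal and uterine cells next to the differentiating germ cells. The 12 libraries fall into 4 groups of 3 biological replicates. One genotype was daf-2(e1370), a reduction-of-function allele of the insulin/IGF-like receptor gene, written daf-2(rf). The other also carried daf-16(mu86), a null allele of the FOXO gene downstream, and is written daf-16(0); daf-2(rf) or the double mutant. Each genotype was taken at 2 adult ages, day 1 (D1) and later on day 7 (D7), with no further treatment. All 4 groups thus carried the daf-2 allele and the GFP transgene, each sorted sample pooled cells of many animals, and the cells of a group are those that were sorted as GFP+.

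A Notch receptor is a membrane protein that meets a ligand on a neighbouring cell. After binding, an ADAM protease cuts the receptor outside the membrane and gamma-secretase, a complex built on a presenilin, cuts it within the membrane. The released intracellular part enters the nucleus and forms an activating complex with a DNA-binding protein and a Mastermind-like coactivator. In this worm, GLP-1 is best known for holding germline stem cells in the undifferentiated state and LIN-12 for cell fate decisions in the somatic gonad and the vulva. The comparisons here ask whether the genes of this machinery differ between cells with and without daf-16, and between D1 and D7, in the sorted GFP+ cells.

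Each library held 6183054 to 16407304 gene-assigned reads, of which the 10 most abundant genes took 27.3% to 73.5%. Levels were scaled with TMM factors of 0.385 to 3.22 and are given as reads relative to the effective library size (CPM), where a single read (1 read) was worth 0.0251 to 0.373 CPM. The shallowest library in terms of detected genes was daf-16(0); daf-2(rf) D1 replicate 1, with 4396 genes over 10 reads against up to 9743 elsewhere. Replicates of a group differed by more than sampling noise (chi-square per degree of freedom at least 40.5 in each pair). The level of daf-16 itself lay on D1 between 35.1 and 41.8 CPM in daf-2(rf) and between 4.95 and 18.6 CPM in the double mutant. On D7 the ranges were 13.3 to 43.5 CPM and 6.26 to 10.3 CPM, so the genotypes did not overlap on either day. The 10 PSG markers summed to between 765 and 1990 CPM, and 7 to 10 of them had more than 10 reads in every replicate of a group. Markers of the intestine summed to 20.4 to 46.0 CPM in daf-2(rf) D7, 376 to 608 CPM in daf-2(rf) D1, 101 to 990 CPM in double-mutant D7 and 394 to 1792 CPM in double-mutant D1. In double-mutant D1 replicate 1, the intestinal sum (1792 CPM) was above the PSG sum (1288 CPM), while in each other library it was below. In sorted cell pools, fewer cells of a type and less RNA per cell cannot be told apart.

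Per exon length, the Notch genes spanned a wide range. On the authors' FPKM scale (fragments scaled to exon length and to library size), the group means ran from 28.2 for glp-1 in daf-2(rf) D1 down to 0.339 for hop-1 in the same group. The genes glp-1, lag-1 and sup-17 had the 3 highest group means in each group and were the 3 highest genes in 9 of 12 libraries. In 3 of the 4 groups lin-12, aph-1 and sel-12 came next, and hop-1 was lowest in 10 of 12 libraries. The place of sel-12 depended on age. On D1 its mean FPKM was 6.34 in daf-2(rf) and 7.52 in the double mutant, against 2.64 and 1.70 for aph-2. On D7 it was 2.69 and 2.97, against 2.24 and 3.6 for aph-2, and the replicates of both genes overlapped in each genotype. In all, sel-12 was above aph-2 in 7 of 12 libraries. The replicates of glp-1, lag-1 and sup-17 overlapped between neighbours in each of the 4 groups. In daf-2(rf) D1, the gaps that did not overlap were those between sup-17 and lin-12, between sel-12 and aph-2 and between sel-8 and hop-1. In double-mutant D1, all neighbours overlapped. The exons counted for lag-1 span 2553 bases in the deposited table and 4695 bases in the Ensembl 115 annotation of the same build, so its per-length level depends on the gene model. For the other genes, the corresponding lengths are closer, for example 4311 and 4326 bases for glp-1. They still differ for pen-2 (611 and 483 bases), sel-8 (1580 and 1847 bases) and lin-12 (4822 and 4555 bases), whose per-length levels also depend on the gene model.

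**Figure D1:**
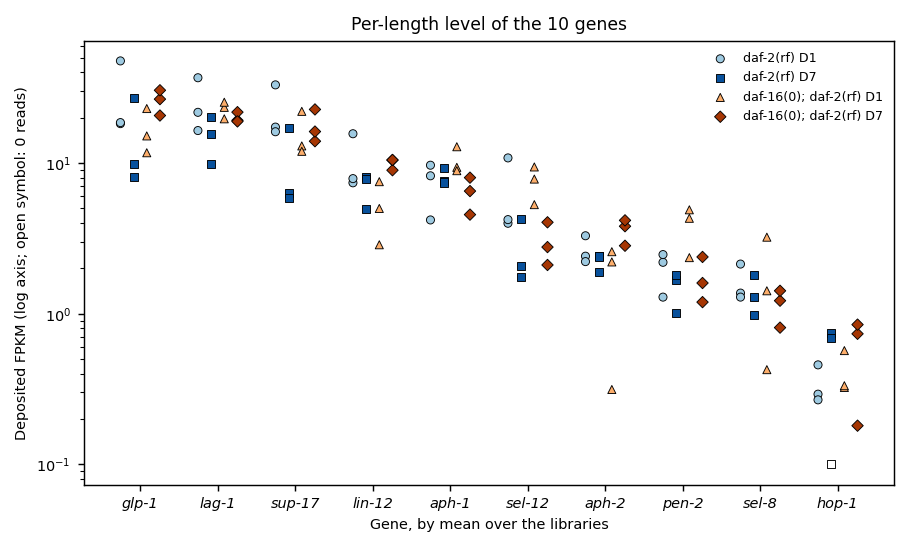
Deposited FPKM (log axis) of the 10 genes in the 12 libraries, 1 symbol per library and 1 symbol shape per group, with genes ordered by their mean. An open symbol at the lower edge marks the library with 0 hop-1 reads, and the points run from glp-1, with a highest group mean of 28.2, to hop-1, with a lowest group mean of 0.339.

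Both receptors were well measured. The gene lin-12 (R107.8) lies on chromosome III of WBcel235 from 9060242 to 9071760 on the minus strand, and glp-1 (F02A9.6) lies on the same chromosome from 9092241 to 9099683 on the plus strand, 20480 bases away. No other gene of the count table overlaps lin-12, and the 1 that overlaps the end of glp-1 had 14 reads over all libraries against 14814 for glp-1. The FPKM of glp-1 was above that of lin-12 in 12 of 12 libraries. The 12 germ-line markers were low: their summed level lay between 7.52 and 12.8 CPM in daf-2(rf) D1, 15.3 and 46.8 CPM in double-mutant D1, 14.5 and 22.2 CPM in daf-2(rf) D7 and 13.5 and 18.1 CPM in double-mutant D7. None of these markers was at 0 in all replicates of a group, but only 1 or 2 of the 12 had more than 10 reads in every replicate. The glp-1 level alone exceeded the germ-line sum in 12 of 12 libraries, by 1.498 to 27.7 times. It was 0.461 to 10.7 times the sum of 10 oocyte markers, above it in 9 of 12 libraries and below it in the 3 double-mutant D1 libraries. These CPM are not scaled to exon length, and the cell type behind the glp-1 reads was not tested.

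The level of lin-12 was 37.8, 76.4 and 39.2 CPM in the daf-2(rf) D1 replicates and 13.8, 25.9 and 38.8 CPM in the double-mutant D1 replicates. On D7, it was 39.99, 38.4 and 23.8 CPM in daf-2(rf) and 50.05, 44.3 and 49.9 CPM in the double mutant. Thus daf-2(rf) replicate 2 stood high on D1, the genotypes overlapped on D1, and on D7 each double-mutant library was above each daf-2(rf) library. The summed markers of 2 other cell types were separated the same way on D7: the 3 distal tip cell markers summed to 22.6 to 56.9 CPM in daf-2(rf) and 139 to 262 CPM in the double mutant, and the intestinal markers differed as given above. Of the 3 distal tip cell genes, 2 (mig-6 and gon-1) had more than 10 reads in every D7 replicate. The third, lag-2, reached more reads in daf-2(rf) D7 than in double-mutant D7, as given below, and was not separated in this way. The sum of this list was therefore not read as a measure of distal tip cells. The part of these lists in the lin-12 levels, or in those of aph-2 in the same comparison, was not tested. The double-mutant D7 libraries were also all above the double-mutant D1 libraries. The group means were 51.1 ± 21.9 CPM (SD, n = 3) in daf-2(rf) D1 and 34.0 ± 8.94 CPM (SD, n = 3) in daf-2(rf) D7. Double-mutant means were 26.2 ± 12.5 CPM (SD, n = 3) at the earlier age and 48.1 ± 3.29 CPM (SD, n = 3) at the later. Genotypes and ages were compared by quasi-likelihood tests in edgeR, with p-values adjusted by Benjamini and Hochberg's method over all genes tested. On D1, the log2 fold change of lin-12 in daf-2(rf) over the double mutant was 0.90 (95% interval -0.15 to 1.95, adjusted p = 0.257 in edgeR). On D7, the corresponding value was -0.50 (95% interval -1.15 to 0.14, adjusted p = 0.372 in edgeR). The change of this genotype difference from D1 to D7, the interaction, was -1.46 (standard error 0.58, 95% interval -2.69 to -0.22), with an unadjusted p of 0.0243 and an adjusted p of 0.153 in edgeR. It was -1.04 without daf-2(rf) D1 replicate 2 and -1.86 without double-mutant D1 replicate 3. Within the double mutant, lin-12 differed by 0.86 on the log2 scale between D7 and D1 (adjusted p = 0.210 in edgeR).

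For glp-1, the D1 levels were 83.4, 208.0 and 82.5 CPM in daf-2(rf) and 50.4, 70.1 and 106.0 CPM in the double mutant. The D7 levels were 120, 42.8 and 34.5 CPM in daf-2(rf) and 88.5, 117 and 129 CPM in the double mutant. On the CPM scale, single libraries set the spread. In these units daf-2(rf) D1 replicate 2 was more than 2 times its companions, and daf-2(rf) D7 replicate 1 likewise stood above replicates 2 and 3. In that D7 library the 10 most abundant genes took 64.0% of the reads, against 27.3% and 31.7% in replicates 2 and 3. Its TMM factor was 0.943, against 3.22 and 2.17. Before scaling, it had 1371 glp-1 reads, against 1705 and 1221. The part of these differences in the glp-1 levels was not tested. The groups overlapped in each of the 4 comparisons. The genotype difference was 0.66 on D1 (95% interval -0.45 to 1.78) and -0.78 on D7 (95% interval -1.87 to 0.31), both log2 fold changes from edgeR. Without daf-2(rf) D7 replicate 1, the D7 value was -1.58 (adjusted p = 0.0703 in edgeR), and without daf-2(rf) D7 replicate 3 it was -0.49. The interaction was -1.49 (standard error 0.73, adjusted p = 0.235 in edgeR), and it ran from -0.90 without daf-2(rf) D1 replicate 2 to -2.32 without daf-2(rf) D7 replicate 1.

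**Figure D2:**
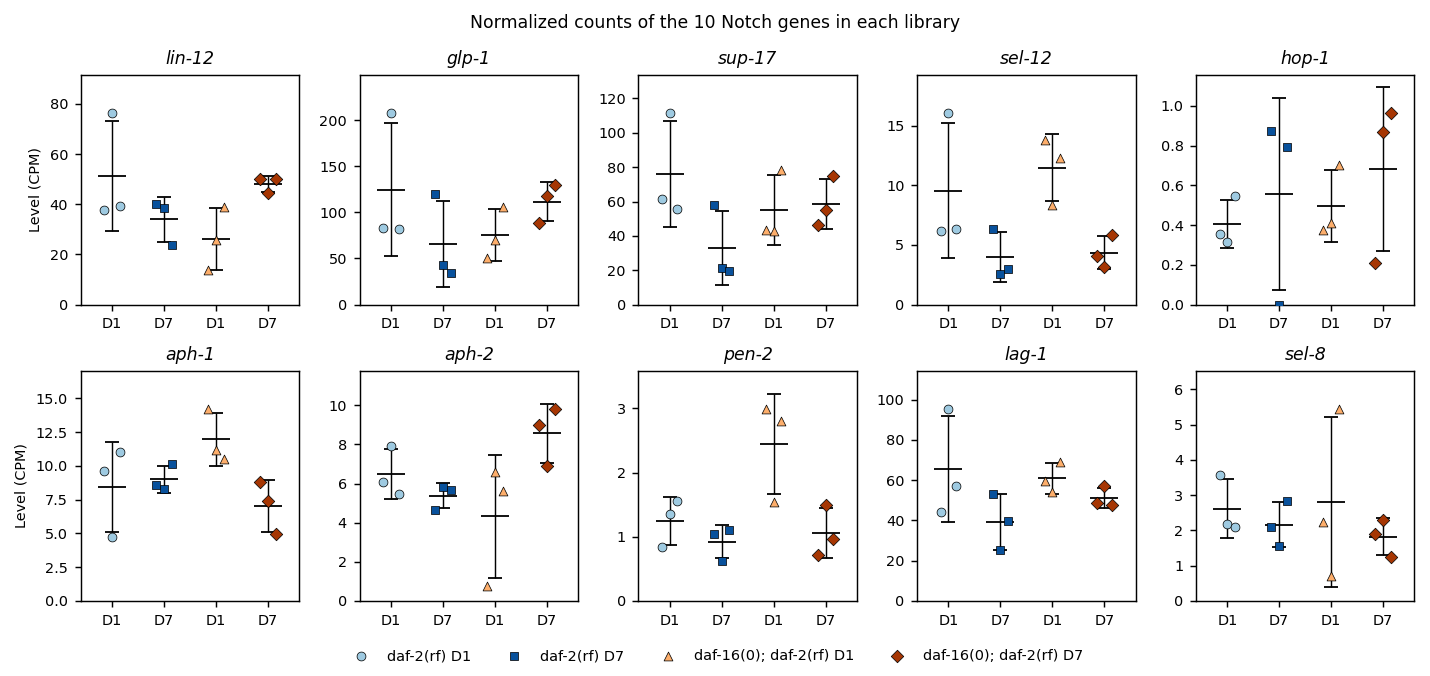
Levels in CPM (linear axes from 0, a scale of its own for each gene) of the 10 genes in the 12 libraries, grouped by genotype and day. Symbols are single libraries, horizontal bars are group means and whiskers are SDs (n = 3); the double-mutant D7 points of lin-12 (44.3 to 50.05 CPM) sit above all daf-2(rf) D7 points (23.8 to 39.99 CPM).

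The gene sup-17 (DY3.7; chromosome I, 8792965 to 8797293, plus strand) encodes the ADAM10-type protease of the first cut. Its level was 61.2, 112 and 55.5 CPM in daf-2(rf) D1 and 58.1, 21.4 and 19.5 CPM in daf-2(rf) D7. In the double mutant it was 43.3, 42.9 and 78.6 CPM on D1 and 46.2, 55.3 and 74.8 CPM on D7. The high and low daf-2(rf) libraries were the same as for glp-1, and the groups overlapped in each comparison. Within daf-2(rf), the log2 fold change from D1 to D7 was -1.19 (95% interval -2.26 to -0.12, unadjusted p = 0.0334, adjusted p = 0.189 in edgeR). Without daf-2(rf) D7 replicate 1 it was -1.93 and passed the call (adjusted p = 0.0494 in edgeR), which with 2 libraries left on D7 rests on replicates 2 and 3. As given for glp-1, the most abundant genes took a smaller share of the reads in these 2 libraries, and their TMM factors were higher. Before scaling, sup-17 had 665 reads in replicate 1 and 853 and 689 reads in replicates 2 and 3. The part of these differences in the levels of sup-17, or of sel-12 in the same libraries, was not tested. Within the double mutant, the D7 to D1 value was 0.08 (95% interval -0.84 to 1.01), and the difference between the genotypes in this change was -1.31 (standard error 0.66, adjusted p = 0.246 in edgeR). The omission of the same 2 libraries as for glp-1 gave -0.92 and -2.06.

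Gamma-secretase is built from a presenilin, SEL-12 or HOP-1, with APH-1, APH-2 (the worm nicastrin) and PEN-2. The presenilin gene sel-12 (F35H12.3) lies on chromosome X from 915874 to 918292 on the plus strand, and no other gene of the table overlaps it. Its level was 6.20, 16.1 and 6.38 CPM in daf-2(rf) D1 and 6.37, 2.59 and 3.02 CPM in daf-2(rf) D7. In the double mutant it was 13.8, 8.36 and 12.3 CPM on D1 and 4.03, 3.17 and 5.86 CPM on D7. All double-mutant D7 libraries were thus below all double-mutant D1 libraries, whereas in daf-2(rf) D7 replicate 1 reached the level of 2 of the D1 libraries. The D7 against D1 log2 fold change was -1.40 in the double mutant (95% interval -2.34 to -0.46, unadjusted p = 0.00782, adjusted p = 0.0755 in edgeR) and -1.26 in daf-2(rf) (95% interval -2.40 to -0.12, adjusted p = 0.192 in edgeR). These values did not pass the threshold of 0.05 after adjustment. With DESeq2's Wald test, the double-mutant value was -1.41 and passed (adjusted p = 0.0243).

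The genotype interaction for sel-12 was 0.11 (95% interval -1.33 to 1.55), so a fit of all 12 libraries with genotype as a term was added after these values were seen. In that fit sel-12 was 0.397 times as high on D7 as on D1, a log2 fold change of -1.33 (95% interval -2.05 to -0.61), with an adjusted p of 0.0498 in edgeR. It was the 1 gene of the 9 tested that was called there, beside 2.77% of all genes tested, and the 1 gene with an unadjusted p below 0.05, beside 23.9%. The call was borderline: it was kept under 4 of 23 other settings and lost under 19, with adjusted p-values from 0.00554 to 0.123. It was lost, for example, without double-mutant D7 replicate 2 (adjusted p = 0.123 in edgeR, log2 fold change -1.23) and with the replicate number as a block (adjusted p = 0.0786 in edgeR). The summed intestinal markers, given above, were lower in each D7 library of daf-2(rf), while their ages overlapped in the double mutant. The oocyte markers summed to 109 to 139.6 CPM in double-mutant D1 against 26.6 to 31.9 CPM in double-mutant D7, and to 21.9 to 24.7 CPM against 4.02 to 47.1 CPM in daf-2(rf). Other lists were also lower in each D7 library of the double mutant: the gonadal sheath markers (60.2 to 172 CPM on D1, 23.1 to 41.9 CPM on D7), the hypodermal markers (43.7 to 184 and 2.73 to 19.6 CPM), the neuronal markers (93.1 to 286 and 65.1 to 92.8 CPM) and the sperm markers (5.44 to 9.08 and 0.0621 to 0.879 CPM, with ssp-9 at 0 throughout). The part of these lists in the levels of sel-12, or of aph-1 and pen-2 in the same comparison, was not tested. The TMM factors were 0.385 to 1.06 in the D1 libraries and 0.943 to 3.22 in the D7 libraries. Before scaling, sel-12 had 37 to 154 reads per library on D1 and 51 to 107 on D7. The part of the scaling in the sel-12 difference was not tested. The fit uses the libraries of both separate comparisons and adds no independent measurement to them.

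The second presenilin gene, hop-1 (C18E3.8; chromosome I, 4208515 to 4210340, minus strand), was close to the detection limit. It had 3, 3 and 7 reads in daf-2(rf) D1 and 1, 4 and 4 reads in double-mutant D1. On D7 it had 10, 0 and 28 reads in daf-2(rf) and 4, 14 and 13 reads in the double mutant. The library with 0 reads allows up to 3 reads, or 0.0753 CPM, for counting error alone. Because no group had more than 10 reads in all 3 replicates, hop-1 entered none of the tests with all libraries and this filter. Without a filter, its log2 fold changes in edgeR lay between -0.26 and 0.53 in the 4 comparisons of groups, with standard errors of 1.01 to 1.21 and adjusted p-values of 0.762 to 0.940, so that a change with age or genotype was not detectable at this depth. It had 91 reads over all libraries, against 967 for sel-12. A gene on the opposite strand, C18E3.3, had 1036 reads and shares 5 bases with hop-1, whose counted exons span 1154 bases. Without strand, reads that cover the shared bases of such pairs cannot be told apart.

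The balance between the presenilins and between the receptors was compared within each library, where scaling between libraries drops out. Per exon kilobase and with 0.5 reads added to each count, sel-12 reads were 2.79 to 163 times hop-1 reads, where the highest ratio is that of the library with 0 hop-1 reads. The mean log2 ratio was 3.93 ± 1.05 (SD, n = 3) in daf-2(rf) D1, 3.92 ± 0.35 (SD, n = 3) in double-mutant D1, 3.79 ± 3.11 (SD, n = 3) in daf-2(rf) D7 and 2.49 ± 1.17 (SD, n = 3) in double-mutant D7. The lin-12 reads were 0.247 to 0.801 times the glp-1 reads. Their mean log2 ratio was -1.74 ± 0.24 (SD, n = 3) in double-mutant D1 and -1.36 ± 0.33 (SD, n = 3) in double-mutant D7, and each D7 library was above each D1 library. This difference of 0.38 had an exact two-sided permutation p of 0.1, the smallest that 3 libraries against 3 can give. Over the 8 comparisons of both ratios, the adjusted p-values of the exact permutation tests were at least 0.533, and the design cannot reach 0.05.

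**Figure D3:**
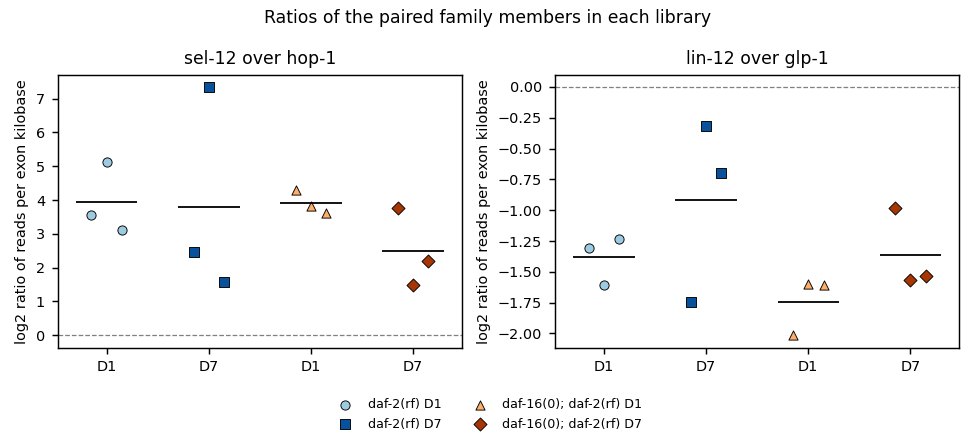
Log2 ratio of reads per exon kilobase (0.5 reads added) in each library for sel-12 over hop-1 and for lin-12 over glp-1, by genotype and day, with horizontal bars at the group means. The dashed line marks equal levels; the sel-12 points all lie above it (2.79 to 163 times) and the lin-12 points all lie below it (0.247 to 0.801 times).

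The scaffold gene aph-1 (VF36H2L.1; chromosome I, 9232067 to 9233562, minus strand) had 9.65, 4.70 and 11.04 CPM in daf-2(rf) D1 and 14.2, 11.1 and 10.5 CPM in double-mutant D1. On D7 it had 8.56, 8.31 and 10.1 CPM in daf-2(rf) and 8.79, 7.39 and 4.97 CPM in the double mutant. In the double mutant all D7 libraries were below all D1 libraries, with a log2 fold change of -0.77 (95% interval -1.64 to 0.11, adjusted p = 0.217 in edgeR). In daf-2(rf) the ages overlapped and the value was 0.14 (95% interval -0.68 to 0.95). Over 31 bases aph-1 overlaps gip-2, a gene on the opposite strand with 1334 reads against 1618 for aph-1. Per length, aph-1 was above aph-2 and above pen-2 in 12 of 12 libraries.

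The nicastrin gene aph-2 (ZC434.6; chromosome I, 10340997 to 10345651, plus strand) was at 6.08, 7.94 and 5.44 CPM in daf-2(rf) D1 and 4.63, 5.83 and 5.68 CPM in daf-2(rf) D7. In the double mutant it was at 0.747, 6.60 and 5.61 CPM on D1 and 8.996, 6.90 and 9.79 CPM on D7. The lowest value was 2 reads in the shallow double-mutant D1 replicate 1. On D7 the double-mutant libraries were all above the daf-2(rf) libraries, and the log2 fold change of daf-2(rf) over the double mutant was -0.66 (95% interval -1.34 to 0.02, adjusted p = 0.276 in edgeR). The double-mutant D7 libraries were also all above the D1 libraries, with a value of 0.89 (95% interval -0.40 to 2.18). The 182 bases that aph-2 shares with ears-1, a gene on the same strand with 7298 reads against 1198 for aph-2, make the aph-2 counts less certain.

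The smallest subunit gene, pen-2 (T28D6.9; chromosome III, 11343284 to 11344237, plus strand), had 7 to 39 reads per library. Its level was 0.834, 1.36 and 1.56 CPM in daf-2(rf) D1 and 2.99, 1.55 and 2.81 CPM in double-mutant D1. On D7 it was 1.05, 0.628 and 1.10 CPM in daf-2(rf) and 0.724, 1.49 and 0.964 CPM in the double mutant. The double-mutant ages did not overlap, with the highest D7 library just below the lowest D1 library, and the log2 fold change was -1.17 (95% interval -2.34 to -0.00086, adjusted p = 0.168 in edgeR). It was not tested between genotypes on D1, where no group had more than 10 reads in each replicate.

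Of the nuclear effectors, lag-1 (K08B4.1; chromosome IV, 6095412 to 6110641, plus strand) encodes the DNA-binding CSL protein and sel-8 (C32A3.1; chromosome III, 3613218 to 3627142, minus strand) the Mastermind-like coactivator. The level of lag-1 was 44.4, 95.2 and 57.2 CPM in daf-2(rf) D1 and 59.7, 53.9 and 69.1 CPM in double-mutant D1. On D7 it was 52.9, 25.3 and 39.7 CPM in daf-2(rf) and 48.7, 57.0 and 47.6 CPM in the double mutant. The groups overlapped in all comparisons, and the log2 fold changes from edgeR were 0.05 and -0.38 between the genotypes on D1 and D7. Between D7 and D1 they were -0.71 in daf-2(rf) (95% interval -1.58 to 0.16) and -0.27 in the double mutant (95% interval -1.07 to 0.53). The spread of lag-1 in the double mutant was small, with a coefficient of variation of 12.6% on D1 and 10.02% on D7.

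The coactivator gene sel-8 was far lower, below lag-1 per length in 12 of 12 libraries. It had 30, 21 and 27 reads in daf-2(rf) D1, 6, 7 and 31 in double-mutant D1, 24, 62 and 100 in daf-2(rf) D7 and 37, 37 and 17 in double-mutant D7. On the CPM scale, the means were 2.62 ± 0.83 CPM (SD, n = 3) in daf-2(rf) D1 and 2.16 ± 0.64 CPM (SD, n = 3) in daf-2(rf) D7. They were 2.80 ± 2.41 CPM (SD, n = 3) in double-mutant D1 and 1.82 ± 0.52 CPM (SD, n = 3) in double-mutant D7. The groups overlapped in each comparison. The largest of its 4 pairwise log2 fold changes was -0.60, for D7 against D1 in the double mutant (95% interval -2.12 to 0.91), and on D1 its sign changed between processing settings.

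Over the whole set, none of the tested genes was called in the 4 planned comparisons of groups or in the interaction. A call required an adjusted p below 0.05 together with an absolute log2 fold change of 1 or more, or the adjusted p alone for the interaction. On D7, 0 of 9 were called between the genotypes, beside 1.15% of all 7933 genes tested, and 0 reached an unadjusted p below 0.05, beside 18.8%. On D1, 0 of 8 were called, beside 3.51% of 6430 genes, and 0 reached an unadjusted p below 0.05, beside 24.9%. Between ages, 0 of 9 were called in daf-2(rf), beside 0.218% of 7337 genes, and 0 of 9 in the double mutant, beside 0.583% of 7541 genes, with 2 genes at an unadjusted p below 0.05 in each. These were sel-12 and sup-17 in daf-2(rf), beside 22.2% of all genes tested, and sel-12 and pen-2 in the double mutant, beside 29.7%. In the interaction, 0 of 9 were called, beside 0.704% of 8096 genes, and 1 (lin-12) reached an unadjusted p below 0.05, beside 23.6%. DESeq2 called 0 in these comparisons apart from sel-12 in the double mutant, and limma on the log2 FPKM called 0. The counts over all genes depended on single libraries: leaving out 1 library gave 0 to 29 called genes between genotypes on D7 (91 with all libraries) and 2 to 474 on D1 (226). Between ages it gave 0 to 231 in daf-2(rf) (16) and 0 to 635 in the double mutant (44), and in the interaction 0 to 130 (57). The count moved by over 1.5 times for 6 of 6 libraries on D7, 5 of 6 on D1, 5 of 6 and 6 of 6 between ages and 10 of 12 in the interaction. With shares of called genes this small, 0 of 8 or 9 does not set the Notch genes apart from the rest.

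Non-overlap of the libraries was also not unusual. On D7, 2 of 9 genes (lin-12 and aph-2) did not overlap between the genotypes, against 25.6% of all genes tested, and on D1 0 of 8, against 32.2%. Between ages, 0 of 9 did not overlap in daf-2(rf), against 28.7%, and 5 of 9 in the double mutant, against 38.8%. In the double mutant, lin-12 and aph-2 were higher (20.9% of all genes tested were) and sel-12, aph-1 and pen-2 lower on D7 (17.9%). The median log2 fold change of the tested genes was -0.38 between genotypes on D7, 0.23 on D1, -0.55 between ages in daf-2(rf) and -0.27 in the double mutant. Over all genes tested, the corresponding medians were 0.03, -0.02, 0.07 and 0.08. The 4 comparisons share libraries, so their values are not independent.

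**Figure D4:**
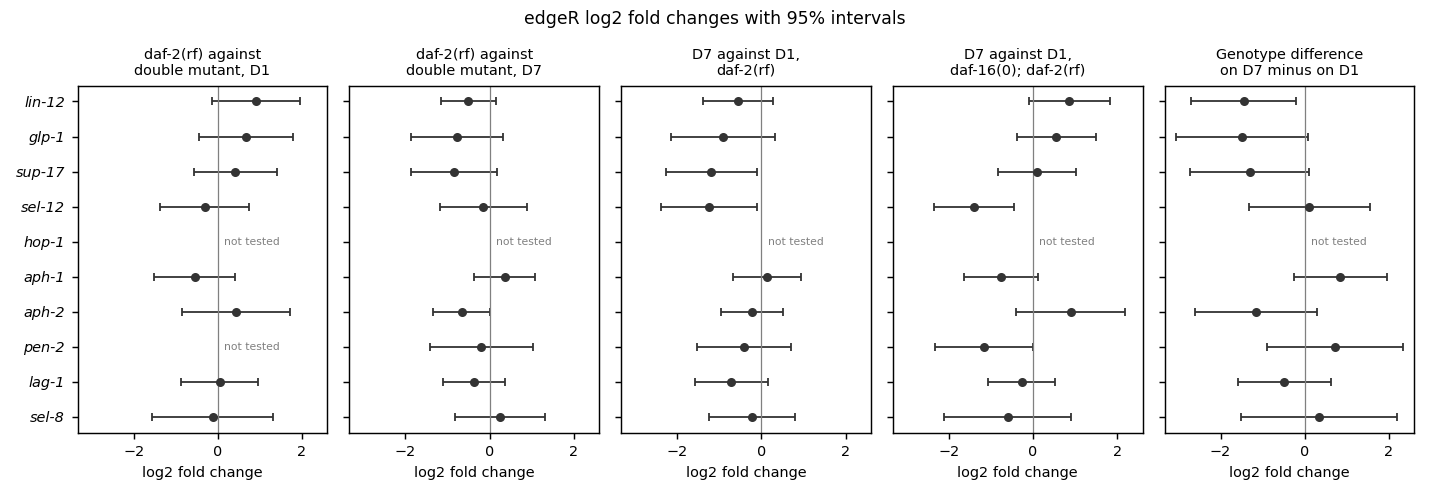
Log2 fold changes from edgeR (points) with 95% intervals (bars) for the 10 genes in the 4 comparisons of groups and in the interaction; positive values are higher in daf-2(rf) or on D7. Genes with too few reads are marked as not tested; the intervals of sel-12 lie below 0 in both comparisons of ages (-1.26 and -1.40), and no gene was called after adjustment.

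Among the 10 genes over the 12 libraries, glp-1 and sup-17 had the most similar profiles (Pearson's r = 0.93 of log2 CPM). This is a description over libraries that share depth and composition differences, and daf-2(rf) D1 replicate 2 was the highest for both. Across all 8095 other genes measured, the profiles most like that of glp-1 were those of F35G2.1 (r = 0.98), sli-1 (r = 0.96) and C05D12.1 (r = 0.94). For lin-12 they were those of a transcript model without a gene name (r = 0.95), ced-7 (r = 0.94) and R07B7.9 (r = 0.93). For lag-1 they were those of tsp-11 (r = 0.95), egl-36 (r = 0.93) and F17C11.4 (r = 0.93).

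Other genes of the pathway were examined from 4 lists. Of 10 genes for canonical DSL ligands, 3 had enough reads to be tested on D7 and 1 on D1, and none was called in any of the 5 comparisons. On D7 all 3 were lower in daf-2(rf), with log2 fold changes of -3.78 to -1.55. Of these, 2 had an unadjusted p below 0.05 in edgeR (beside 18.8% of all genes tested) and 2 did not overlap between genotypes (beside 25.6%). On D1 the 1 tested gene was at -1.25, also with an unadjusted p below 0.05 in edgeR (beside 24.9%). The best measured of the 10 was apx-1, at group means of 7.22 CPM in daf-2(rf) D1, 16.7 CPM in double-mutant D1, 2.49 CPM in daf-2(rf) D7 and 6.86 CPM in double-mutant D7. The distal tip cell ligand lag-2 had at most 4 reads in each D1 library, 4 to 112 reads in daf-2(rf) D7 and 2 to 11 in double-mutant D7. Of 5 genes for DOS ligands, which lack the DSL domain, osm-11 was the best measured (27.7 to 41.9 CPM as group means). The gene dos-3 was called between the genotypes on D7 (124 to 624 reads per daf-2(rf) library and 6 to 11 per double-mutant library, log2 fold change 4.31, adjusted p = 0.0398 in edgeR). This call was kept under 11 of 18 other settings, run after it was seen. It was lost with the replicate block (adjusted p = 0.102 in edgeR) and without any 1 of the D7 libraries except daf-2(rf) replicate 3 (0.0536 to 0.126), and the gene was not tested with over 10 reads required in every library.

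Of 15 genes known as Notch targets, 7 were tested on D7 and 6 on D1. The germ-line target sygl-1 was called on D1 (3 to 8 reads per daf-2(rf) library and 16 to 26 per double-mutant library, log2 fold change -2.79, adjusted p = 0.0318 in edgeR), where the germ-line markers summed to 7.52 to 12.8 CPM and 15.3 to 46.8 CPM; their part in the sygl-1 difference was not tested. This call was also kept under 11 of 18 settings and lost under 6, among them the omission of any 1 of the D1 libraries except double-mutant replicate 2 (adjusted p = 0.0584 to 0.152 in edgeR). The best measured target, lst-3, was at 37.8 to 66.4 CPM as group means and was not called. Of 18 regulators in the table, 18 were tested on D7 and 16 on D1, and 0 were called in the 5 comparisons, with 2 at an unadjusted p below 0.05 on each day. The ubiquitin ligase gene wwp-1 was the best measured, at 65.2 to 76.1 CPM as group means, with log2 fold changes between -0.15 and -0.08 in the 4 comparisons of groups.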

How the data were processed

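RNA of sorted GFP+ cells was sequenced in 12 libraries (4 groups of 3). Alignment by the authors used HISAT2 2.0.5 and WBcel235, and the raw read counts they deposited come from featureCounts 1.5.0-p3. The cDNA kit does not mark strand. The authors also deposited FPKM values, which equal the count divided by the exon length times 1 constant per library (checked on all genes with reads). These constants lay near the TMM scale, so the tests on FPKM did not try scaling by total reads. The annotation release behind the counts is not given in the sources used here.

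Tests on the counts used edgeR 4.0.16 under R 4.3.3, with TMM scaling, the quasi-likelihood F test and Benjamini-Hochberg adjusted p-values. A gene entered a fit if each of the 3 replicates in 1 or more of its groups exceeded 10 reads. The authors' thresholds defined a call: adjusted p below 0.05 and, but for the interaction, a log2 fold change of 1 or more in magnitude. Each fit used the 6 libraries of its comparison, the interaction all 12. Standard errors are the absolute log2 fold change over the square root of F, and 95% intervals use edgeR's degrees of freedom. CPM are on the TMM scale of the 12 libraries. Profile likeness used log2 CPM with a prior count of 2, over genes that passed the filter. Ratios used exact permutation tests (scipy 1.17.1). Floors and intervals of counts cover counting error only, with 3 reads allowed by a count of 0.

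Alternatives changed the fold threshold (log2 of 2), the test (DESeq2 1.42.0, or limma 3.58.1 on FPKM with 1 or 0.1 added, in log2), the scaling (size factors of DESeq2, upper quartile, or TMM without the 20 most abundant genes), the filter (none, or over 10 reads in each library), the dispersion (robust), the model (a replicate block, or 12 libraries in 1 fit) and the libraries (each left out). The text names all 10 genes, the called and best measured genes of 4 pathway lists, and the 3 genes most like lin-12, glp-1 and lag-1; lag-2 was added after its values were seen. Members and lists were chosen with earlier results of these data known. Steps were tested on simulated counts. Sequences were not analysed here.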

Additional observations from a re-analysis of the deposited data

How the results depend on the processing

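Of the 1023 log2 fold changes of 9 of the 10 genes (hop-1 was not tested) computed under other settings, 968 kept their direction and their side of the threshold, 34 changed sign, 19 lost a call and 2 gained one, and no value that changed sign had an adjusted p below 0.374 (edgeR, DESeq2 or limma, by setting). No gene was called in 5 planned comparisons under other settings except sel-12 in the double mutant with DESeq2 (1 gene called) and sup-17 in daf-2(rf) when daf-2(rf) D7 replicate 1 was left out, so the count of called genes ran from 0 to 1 there over single omitted libraries and stayed at 0 in the other planned comparisons. In the added fit of both genotypes, the count was 1, and 0 with a log2 threshold of 2 (by construction), DESeq2 size factors, upper-quartile normalization, over 10 reads in every library, robust dispersions, the replicate block, limma on either log2 FPKM, and without the 20 most abundant genes. Over single omitted libraries it ran from 0 to 1. The sel-12 value stayed between -1.56 and -1.02 under these settings, none of which scaled by total reads. The cause of the lost calls was not tested.

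Changes of sign were confined to uncalled values. Between genotypes on D1, lag-1 became -0.024 with the replicate block, and sel-8 became 0.041 without a filter, 0.13 with the replicate block, and in limma 0.075 with 1 and 0.26 with 0.1 added to the FPKM. With over 10 reads in every library, lag-1 became 0.11 between ages in the double mutant, sel-12 became -0.075 in the interaction and glp-1 0.038 between ages over both genotypes, and with 0.1 added to the FPKM in limma sel-8 became -0.047 in the interaction. With FPKM in place of reads, the genotype difference on D1 in the ratio of sel-12 to hop-1 became -0.12. Leaving out single libraries gave, for genotypes on D7, -0.041 to 0.47 (sel-8), -0.67 to 0.14 (sel-12) and -0.42 to 0.16 (pen-2); on D1, -0.30 to 0.24 (lag-1) and -0.66 to 1.01 (sel-8). Between ages within daf-2(rf) it gave -0.49 to 0.034 (sel-8) and -0.17 to 0.38 (aph-1), within the double mutant -1.13 to 0.51 (sel-8) and -0.13 to 0.44 (sup-17), and over both genotypes -0.084 to 0.40 (lin-12), -0.38 to 0.16 (glp-1) and -0.64 to 0.010 (sel-8). In the interaction it gave -0.76 to 0.84 (sel-8) and -0.45 to 0.71 (sel-12). The ratio of sel-12 to hop-1 ran from -0.48 to 2.41 between genotypes on D7, -0.58 to 0.42 on D1 and -1.92 to 0.97 between ages in daf-2(rf).

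The labels number the replicates. Correlations between the deviations of libraries with the same number lay between -0.27 and 0.25, and the number was not taken as a pairing. Between genotypes on D1 their mean was above that of libraries with different numbers (0.083 against -0.045). In the other comparisons of groups it was below. With the replicate block, 0 of the Notch genes were called in each comparison, and the sel-12 value over both genotypes was -1.36. Counts over all genes moved by more than 1.5 times with the test and the filter: on D7, 91 genes were called between genotypes, 702 with DESeq2, 1025 without a filter and 0 with the replicate block. On D1 these counts were 226, 761, 861 and 478, between ages 16, 651, 863 and 15 for daf-2(rf), 44, 1353, 1394 and 67 for the double mutant, and for the interaction 57, 842, 703 and 17. Over genes tested in both fits, the median of the gene-by-gene shift in log2 fold change reached 0.23 on D1 and 0.39 between ages in the double mutant with over 10 reads in every library; without a filter, the median over all tested genes went from 0.08 to 0.55 between ages in the double mutant. Depth limited hop-1, aph-2, sel-8 and pen-2, with down to 0, 2, 6 and 7 reads in a library.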
